A study of Mus musculus with 18 samples.

Results

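*Esrrb*, *Nr0b1* and *Nr5a2* are 3 of the 24369 genes in the table of TPM (a level scaled for transcript length and library total) that covers all 18 libraries, and they were taken by gene symbol. They encode nuclear receptors that are known for high expression in naive mouse embryonic stem cells (mESCs). They are described here over 4 days of differentiation and over 3 genotypes of mESCs. All cells are of the E14 line with the genotype Rex1GFPd2-Cas9, that is, with a destabilised GFP reporter at *Rex1* (*Zfp42* in the files) and Cas9 at *Rosa26*. The time course held day 0, day 1, day 2 and day 3 of differentiation of this line, which the study treats as wild-type, with 3 libraries per day. GFP+ cells, sorted for the reporter, held wild-type, *Nprl2* KO (Rex1GFPd2-Cas9 Nprl2-/-) and *Tsc2* KO (Rex1GFPd2-Cas9 Tsc2-/-), with 2 libraries per genotype. Nprl2 is a subunit of Gator1 and Tsc2 of the Tsc complex, and both complexes restrain the kinase complex mTORC1. The KO lines were made by deletion of an exon, and the GFP+ cells had been cultured on feeder fibroblasts with serum and LIF. The labels do not say whether libraries of a group came from separate cultures or clones, so p-values measure the spread between these libraries, which may be technical. The medium of the day 0 cells and any sorting of the time course are not given in the sources used here.

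Nuclear receptors bind DNA as transcription factors, and many are switched by a small ligand. Esrrb is an orphan receptor related to the estrogen receptors, a known repression target of the Wnt pathway factor Tcf7l1 that becomes more active when Gsk3 is inhibited, and it helps to hold the naive state. Nr5a2, also called Lrh1, binds regulatory DNA of *Pou5f1* as a monomer. Nr0b1, also called Dax1, lacks the usual DNA-binding domain and binds other receptors, Nr5a2 among them, mostly as a corepressor. All are known to be lost when mESCs leave the naive state.

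The files list 2 RefSeq transcripts of *Esrrb*, 2 of *Nr5a2* and 1 of *Nr0b1*, and those of *Esrrb* and of *Nr5a2* differ in where transcription starts. In all 18 libraries the estimated counts of *Esrrb* lay on NM_011934, which starts inside the gene at position 86421644 of chromosome 12 (plus strand, GRCm38), with 70623 counts in sum. NM_001159500, which starts 60527 bases upstream at 86361117, was listed at 0 in each of the 18. In GENCODE, 425 of the 31-base words of the upstream transcript are not in the other, so reads could have told them apart. The estimated counts of *Nr5a2* lay on NM_001159769, which starts at 136953630 of chromosome 1 (minus strand), with 12244 counts in sum, and NM_030676, which starts 6818 bases upstream at 136960448, was at 0 in each of the 18. For *Nr5a2* the GENCODE transcript matched to NM_001159769 is 1756 bases long against 3635 as quantified, so no such word count is given. A count of 0 allows 3 counts, for counting error only and for counts as kallisto assigned them. This is 0.00425% of the gene's counts for *Esrrb* and 0.0245% for *Nr5a2*. Only reads over the stretch where 2 transcripts differ can separate them, so the share of the upstream transcript that the zeros allow is larger. The zeros held on every day and in every genotype, and with counts assigned to 1 transcript per gene no test of transcript shares was possible.

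The 250 bases before the starts of the transcripts with counts are shown because they are the promoter DNA of those transcripts. They are RefSeq sequences of build GRCm38.p6, written 5′ to 3′ on the strand of the gene. Capitals mark matches to the motifs searched for, on either strand. The core half-site of nuclear receptors is AGGTCA. Longer sites of the kind that Esrrb and Nr5a2 bind are TCAAGGTCA, which holds the half-site, and TCAAGGCCA. The Tcf core was searched as CTTTGA and the Stat core as TTCNNNGAA. *Esrrb* is at chr12:86421394-86421643 on the plus strand, *Nr0b1* at chrX:86191525-86191774 on the plus strand and *Nr5a2* at chr1:136953631-136953880 on the minus strand.
Esrrb: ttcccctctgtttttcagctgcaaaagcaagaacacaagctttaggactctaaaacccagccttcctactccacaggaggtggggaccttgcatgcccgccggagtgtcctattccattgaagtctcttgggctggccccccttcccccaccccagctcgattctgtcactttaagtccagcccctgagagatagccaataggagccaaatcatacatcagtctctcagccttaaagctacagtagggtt
Nr0b1: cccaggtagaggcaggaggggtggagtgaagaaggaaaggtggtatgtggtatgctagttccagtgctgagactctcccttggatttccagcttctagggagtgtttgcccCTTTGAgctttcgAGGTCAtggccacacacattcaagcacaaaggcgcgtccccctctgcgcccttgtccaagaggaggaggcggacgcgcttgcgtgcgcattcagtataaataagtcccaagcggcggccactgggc
Nr5a2: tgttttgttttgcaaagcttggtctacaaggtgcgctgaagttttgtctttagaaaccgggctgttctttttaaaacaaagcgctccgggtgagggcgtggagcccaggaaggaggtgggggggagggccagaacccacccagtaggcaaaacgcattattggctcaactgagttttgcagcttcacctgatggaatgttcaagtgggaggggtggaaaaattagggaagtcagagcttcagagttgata
The window of *Nr0b1* held CTTTGA, which began 139 bases before the start, and AGGTCA, which began 126 bases before it. AGGTCA was found in 14.02% and CTTTGA in 13.83% of the 32851 promoter windows of this length in the table. The windows of *Esrrb* and *Nr5a2* held none of the 5 motifs. Of the starts with no counts, that of *Nr5a2* held AGGTCA and that of *Esrrb* held TTCGTGGAA, and TTCNNNGAA was found in 7.02% of all windows. TCAAGGTCA was in 0.39% and TCAAGGCCA in 0.51% of windows and in none of the 5 windows of these genes. Matches describe the letters in these windows and no binding was measured.

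The total of estimated counts lay between 12503005 and 15305054 per library in the time course and between 8610357 and 13780861 in GFP+ cells. Each set was fitted together, with 14382 genes tested in the time course and 13725 in GFP+ cells. As a check of the labels, *Nprl2* was at 5.96 and 6.50 CPM (counts relative to the TMM-scaled library total) in the *Nprl2* KO libraries and 11.7 and 12.6 CPM in wild-type, and *Tsc2* was at 63.7 and 67.3 CPM in the *Tsc2* KO libraries and 152.3 and 155.5 CPM in wild-type. *Pou5f1*, *Sox2* and the other 6 markers of mESCs were above 1 TPM in every library.

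All 3 genes were high at day 0 and close to absent at day 3, but they did not leave at the same pace. *Esrrb* and *Nr5a2* lost most of their level in the first day. *Nr0b1* lost far less over that day and then dropped within the second. In bulk RNA, fewer cells that express a gene and less RNA per cell cannot be told apart.

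*Esrrb* was at 394, 388 and 426 TPM in the day 0 libraries, higher than 98.5% to 98.7% of all genes. It was at 28.5, 29.9 and 35.5 TPM at day 1. It was at 2.56, 3.57 and 2.51 TPM at day 2 and at 1.56, 1.32 and 1.18 TPM at day 3. No day overlapped with another, and the means at days 1, 2 and 3 were 7.77%, 0.714% and 0.336% of the mean at day 0. In the quasi-likelihood test of edgeR, with p-values adjusted after Benjamini and Hochberg, the log2 fold change at day 1 against day 0 was -3.62 (SE 0.09, adjusted p = 4.9e-16). It was -3.55 (SE 0.12, adjusted p = 7.8e-14) at day 2 against day 1. In the third day the fall was shallower, at -1.12 (SE 0.18, adjusted p = 0.000192), from 70 to 105 counts per library at day 2 to 33 to 50 at day 3.

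*Nr5a2* had a lower level and a like course. It was at 57.4, 52.3 and 61.3 TPM at day 0 and at 4.95, 4.90 and 6.43 TPM at day 1. It was at 0.497, 0.396 and 0.334 TPM at day 2 and at 0.182, 0.232 and 0.167 TPM at day 3. The days did not overlap, and 9.52%, 0.717% and 0.339% of the day 0 mean were left at days 1, 2 and 3. The log2 fold change from edgeR was -3.33 (SE 0.10, adjusted p = 1.6e-15) in the first day and -3.82 (SE 0.19, adjusted p = 6.8e-12) in the second. The step from day 2 to day 3, at -1.10 (SE 0.39, edgeR adjusted p = 0.0398), rested on 8 to 12 counts per library at day 2 and 4 to 6 at day 3. That call was lost with DESeq2 (adjusted p = 0.0661), with limma on log2(TPM + 1) (adjusted p = 0.142) and without the filter on low counts (adjusted p = 0.0565). It was also lost in edgeR without day 2 library 1 (adjusted p = 0.16) or 2 (0.091), or without day 3 library 1 (0.114), 2 (0.0522) or 3 (0.11). With only days 2 and 3 in the fit, *Nr5a2* did not pass the filter on low counts and was not tested. It entered the shared fit through its counts at days 0 and 1.

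*Nr0b1* was at 139, 141 and 182 TPM at day 0 and at 65.3, 69.0 and 81.3 TPM at day 1. It was at 2.10, 3.02 and 1.86 TPM at day 2 and at 0.539, 0.409 and 0.177 TPM at day 3. The days did not overlap, and 46.7% of the day 0 mean was left at day 1, 1.51% at day 2 and 0.244% at day 3. The log2 fold change from edgeR was -1.03 (SE 0.11, adjusted p = 7.5e-07) in the first day. It was -5.05 (SE 0.18, adjusted p = 2.6e-12) in the second day, when 19 of the 14382 genes tested had a lower fold change. In the third day it was -2.62 (SE 0.46, adjusted p = 0.000564), with 2 to 7 counts per library at day 3.

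In the fit of all days the 3 genes were thus called lower in each of the 3 steps. For *Nr5a2* the third step has the limits given above. The calls need the background beside them. Of all genes tested, 30.8% were called lower at day 1 against day 0. The share was 29.6% at day 2 against day 1 and 15.6% at day 3 against day 2. Over the whole course the log2 fold changes of *Esrrb*, *Nr0b1* and *Nr5a2* were -8.29 (SE 0.13), -8.69 (SE 0.22) and -8.25 (SE 0.17), each called lower as were 35.9% of genes. Between 13 and 18 of the 14382 genes tested had a lower fold change than each of them. At day 2 against day 0 they were -7.17, -6.08 and -7.15, with 32.4% of all genes called lower.

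**Figure D1:**
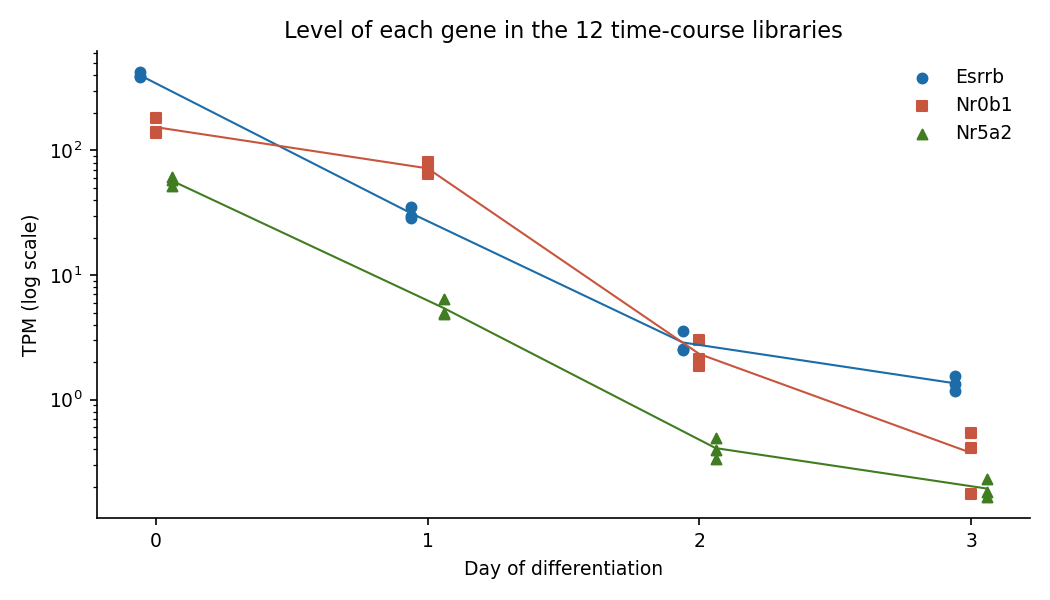
Level of *Esrrb*, *Nr0b1* and *Nr5a2* in TPM on a log axis against the day of differentiation, with a point for each of the 12 libraries and lines through the means of 3 libraries. *Nr0b1* lies below *Esrrb* at day 0 (139 to 182 against 388 to 426 TPM) and above it at day 1 (65.3 to 81.3 against 28.5 to 35.5 TPM).

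The order of the genes changed with the day. In TPM, which is per length, the order at day 0 was *Esrrb*, *Nr0b1*, *Nr5a2*, with no overlap between libraries. At day 1 *Nr0b1* was the highest in each of the 3 libraries, again with no overlap. At day 2 *Esrrb* (2.51 to 3.57 TPM) and *Nr0b1* (1.86 to 3.02 TPM) overlapped above *Nr5a2*, and at day 3 *Nr0b1* (0.177 to 0.539 TPM) and *Nr5a2* (0.167 to 0.232 TPM) overlapped below *Esrrb*.

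The unlike pace was tested on the ratio of 2 genes within a library, over the 3 pairs. The ratio of *Nr0b1* to *Esrrb* in TPM was 0.352 to 0.426 at day 0, 2.29 to 2.31 at day 1, 0.741 to 0.846 at day 2 and 0.150 to 0.346 at day 3. Between days 0 and 1 it rose by 2.60 on the log2 scale. It differed between days by an exact permutation test over all 369600 ways to deal 12 libraries into 4 days (p = 6.49e-05, the smallest this test can give, and 0.000195 after adjustment over the 3 pairs). The ratio of *Nr0b1* to *Nr5a2* went from 2.41 to 2.96 at day 0 to between 12.6 and 14.1 at day 1, 4.24 to 7.62 at day 2 and 1.06 to 2.96 at day 3 (exact permutation p = 0.00026, adjusted 0.00039). The ratio of *Nr5a2* to *Esrrb* was 0.135 to 0.146 at day 0, 0.164 to 0.181 at day 1, 0.111 to 0.194 at day 2 and 0.117 to 0.175 at day 3. Its mean moved by 0.29 on the log2 scale from day 0 to day 1 and by 0.01 from day 0 to day 3. The days were not told apart (exact permutation p = 0.462), which does not show an equal pace. The log2 ratio had an SD of 0.06 and 0.07 at days 0 and 1, whose libraries did not overlap. At days 2 and 3 the SD was 0.41 and 0.29, with few counts of *Nr5a2*. These tests took all 4 days at once, since 3 libraries against 3 could not reach 0.05 for a single pair of days.

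Other naive pluripotency genes were described beside them. The list holds 14 genes that the study itself drew for these libraries, so its direction is no independent evidence. At day 1, 13 of the 14 were called lower and none higher, with a median log2 fold change of -3.04 beside 0.00 over all genes and 30.8% of all genes called lower. At day 3 all 14 were called lower, with a median of -4.83 beside -0.01 over all genes and 35.9% of all genes called lower. In CPM, *Nr0b1* had 49.0% of its day 0 level left at day 1, close to *Prdm16*, a zinc finger gene, with 49.9%, and *Lifr*, the LIF receptor, with 53.6%. *Fgf4*, the growth factor that drives ERK signalling in mESCs, was at 147% of day 0 (log2 fold change 0.55, edgeR adjusted p = 0.0527). At the other end were *Tbx3* with 1.39% left, *Prdm14* with 1.69%, *Klf4* with 2.33% and *Nanog* with 2.81%, all transcription factors of the naive network. *Esrrb* and *Nr5a2*, with 8.15% and 9.98% left, lay between these and the reporter gene *Zfp42* with 21.3%.

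By day 3 the members were among the most reduced of the 17 genes. *Nr0b1* had 0.231% of its day 0 CPM left, *Esrrb* 0.317% and *Nr5a2* 0.320%, and of the others *Prdm14* (0.0510%) and *Tcl1* (0.0591%) had less. At day 3 *Nr0b1* had 2 to 7 counts per library and *Nr5a2* 4 to 6, so the order among the members is uncertain. *Prdm16*, *Lifr* and *Fgf4*, which kept as much as *Nr0b1* or more over the first day, still had 12.1%, 7.82% and 18.1%. *Nanog* was at 2.81% of its day 0 level at day 1 and at 15.2% at day 3, whereas each member was lower at day 3 than at day 1. In log2 terms, the first day held 43.7% of the fall of *Esrrb* to day 3, 40.3% of that of *Nr5a2* and 11.8% of that of *Nr0b1*.

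**Figure D2:**
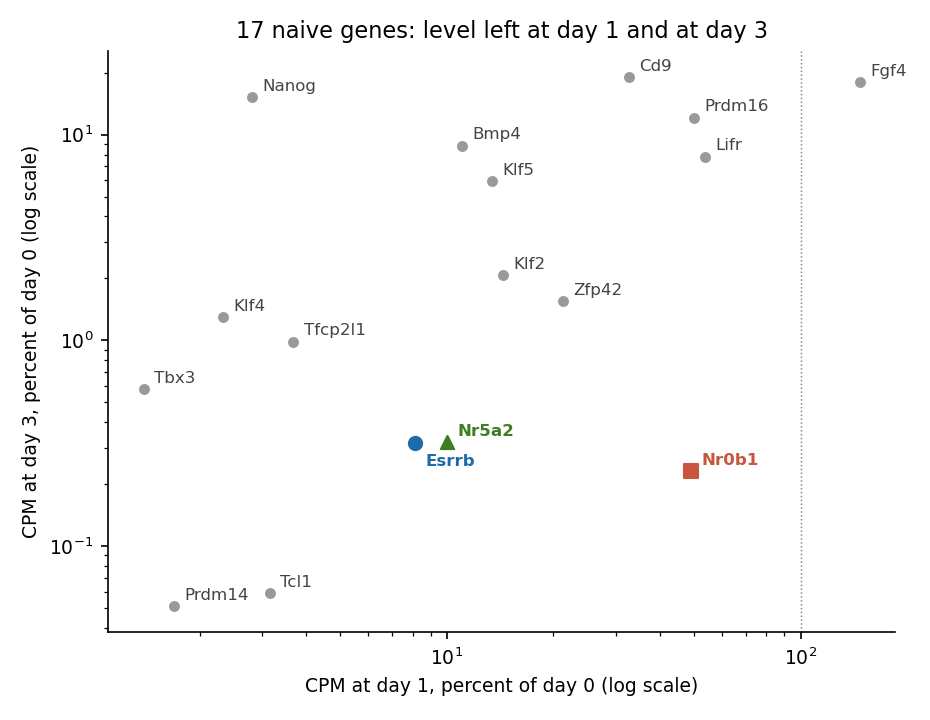
Mean CPM at day 1 (horizontal) and day 3 (vertical) as percent of day 0, on log axes, for the members and the other 14 naive genes, with a dotted line at the day 0 level. *Nr0b1* (49.0% and 0.231%) lies at the lower right, away from *Esrrb* (8.15% and 0.317%) and *Nr5a2* (9.98% and 0.320%), which lie side by side.

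Other nuclear receptors did not follow the members as a family. Of 46 listed, 28 were tested in the time course. At day 1, 11 were called higher and 8 lower, beside 30.1% and 30.8% of all genes. At day 3, 12 were called higher and 9 lower, beside 35.0% and 35.9% of all genes. These 19 and 21 of 28 stand beside 60.9% and 70.9% of all genes called at days 1 and 3. At day 3 the list had a median of 0.13 on the log2 scale, beside -0.01 over all genes. Among called genes above a mean of 1 log2 CPM whose groups did not overlap, large rises at day 3 were those of the progesterone receptor *Pgr* (log2 fold change 3.82) and the retinoid X receptor *Rxrg* (2.53). *Pgr* went from 0.748 ± 0.103 CPM (SD, n = 3) at day 0 to 10.7 ± 0.776 CPM at day 3. By the same rule the largest falls were those of the heme receptor *Nr1d1* (-0.62), the retinoic acid receptor *Rara* (-0.61), the oxysterol receptor *Nr1h2* (-0.53) and the fatty acid receptor *Ppard* (-0.37), all far smaller than those of the members. *Hnf4a*, a receptor of endoderm and liver that was too low for this rule, had 2.01 CPM at day 0 and 0.119 CPM at day 3 (log2 fold change -3.97), and it was named after its values were seen. *Esrra*, the nearest relative of *Esrrb* in the list to be tested, was at 21.3 ± 0.194 CPM at day 3 and 21.1 ± 1.98 CPM at day 0 (log2 fold change 0.01, edgeR adjusted p = 0.922), and it was named after its values were seen.

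Of 10 known regulators of these genes, 6 were called lower and 2 higher at day 1, beside 60.9% of all genes called, and 5 lower and 1 higher at day 3, beside 70.9%. *Stat3*, which carries the LIF signal, fell by 2.46 on the log2 scale at day 1 and *Nanog* by 5.15. *Sox2* fell by 1.35 at day 1 and by 3.11 at day 3. *Tcf7l1*, the repressor in the Wnt pathway, fell by 0.38 at day 1 (edgeR adjusted p = 0.000285). *Tfe3*, a transcription factor that is known to activate *Esrrb* when it is in the nucleus, rose by 0.84 at day 1. *Pou5f1* was called at day 3, with a log2 fold change of -0.66, and its value at day 1 was 0.07 (edgeR adjusted p = 0.426).

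Many genes went down over these days, so a like profile was common. Over the 12 time-course libraries, 8.22% of 12271 genes had a Pearson r of 0.9 or more with *Esrrb* in log2 CPM. The 5 genes most like *Esrrb* were *Mcam*, *Nr5a2*, *Fbxo15*, *Zfp42* and *Mreg*, with r between 0.996 and 0.998. Those most like *Nr5a2* were *Esrrb*, *Zfp42*, *Mreg*, *Mcam* and *Fbxo15*, that is, the same genes. Those most like *Nr0b1* were *AU018091*, *Arl14epl*, *Tcea3*, *Dnajc21* and *Gpa33*, with r between 0.994 and 0.996, and *Esrrb* came 479th with r = 0.949. The libraries of a day share their day, so these r describe 4 levels rather than 12, and with Spearman's rho in place of r none of the 5 genes was the same for any member.

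Markers of other cell types were low in the time course. The 10 feeder fibroblast markers summed to between 15.1 and 24.2 TPM at day 0 and between 39.8 and 48.0 TPM at day 3. The 8 primitive endoderm markers summed to 34.7 to 47.3 TPM at day 0 and 14.3 to 17.1 TPM at day 3, and the 8 trophoblast markers, of a lineage that also uses *Esrrb*, to 17.3 to 21.5 and 6.44 to 9.64 TPM. *Esrrb* alone, at 388 to 426 TPM, exceeded each of these sums at day 0. Sums of TPM do not measure a share of cells, and the part of other cell types in these levels was not tested.

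In GFP+ cells the direction of *Esrrb* followed the genotype, lower in *Nprl2* KO and higher in *Tsc2* KO than in wild-type. *Nr5a2* was higher in *Tsc2* KO. *Nr0b1* was called between the KOs and was not called in either KO against wild-type. With a block for the replicate number in the fit, *Nr0b1* was called in both KOs and *Nr5a2* in *Nprl2* KO. Whether the numbers pair the libraries is not known. Both KO comparisons share the 2 wild-type libraries.

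*Esrrb* was at 84.6 and 75.2 TPM in *Nprl2* KO, at 154 and 161 TPM in wild-type and at 327 and 331 TPM in *Tsc2* KO. The genotypes did not overlap, which with 2 libraries each can happen by chance. The share of all genes without overlap is not given here. The means of the KOs were 50.7% and 208.7% of wild-type. By edgeR, the log2 fold change was -0.94 in *Nprl2* KO (95% interval -1.09 to -0.78, adjusted p = 2.9e-05), and 1.65% of all genes tested had a lower one. It was 1.03 in *Tsc2* KO (95% interval 0.88 to 1.18, adjusted p = 1.6e-06), and 4.53% of genes had a higher one. *Tsc2* KO exceeded *Nprl2* KO by 1.96 (SE 0.07, edgeR adjusted p = 5.2e-09). *Esrrb* stayed called in all 3 comparisons in every alternative fit and without any 1 library.

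*Nr5a2* was at 32.3 and 41.5 TPM in *Nprl2* KO, at 42.1 and 50.7 TPM in wild-type and at 74.1 and 77.9 TPM in *Tsc2* KO. Both *Tsc2* KO libraries lay above the rest, while the higher *Nprl2* KO library came close to the lower wild-type one. The log2 fold change in *Tsc2* KO was 0.68 (95% interval 0.39 to 0.97, edgeR adjusted p = 0.00428). In *Nprl2* KO it was -0.28 (95% interval -0.58 to 0.01, edgeR adjusted p = 0.251), so a fall of up to 0.58 or no fall are both within the interval. With a replicate block the fall was called (-0.29, edgeR adjusted p = 0.0185). *Tsc2* KO exceeded *Nprl2* KO by 0.96 (SE 0.13, edgeR adjusted p = 0.00051).

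*Nr0b1* was at 64.6 and 37.2 TPM in *Nprl2* KO, at 102 and 81.9 TPM in wild-type and at 135 and 114 TPM in *Tsc2* KO. The libraries of the genotypes did not overlap, which with 2 libraries each can happen by chance. The pair within *Nprl2* KO lay far apart. The log2 fold change was -0.84 in *Nprl2* KO (95% interval -1.68 to 0.00, edgeR adjusted p = 0.229) and 0.40 in *Tsc2* KO (95% interval -0.40 to 1.20, edgeR adjusted p = 0.386). Neither passed the threshold in this fit, while both did with a replicate block (edgeR adjusted p = 0.00118 and 0.0151). The direct comparison of *Tsc2* KO with *Nprl2* KO passed it without the block, with 1.24 (SE 0.30, edgeR adjusted p = 0.0415). That call was lost in edgeR without wild-type library 1 or 2 (adjusted p = 0.107 for either) and without *Tsc2* KO library 1 (0.0918) or 2 (0.0589), and with only those 2 genotypes in the fit (0.093). Without *Nprl2* KO library 1, the fall in *Nprl2* KO was -1.28 and was called (edgeR adjusted p = 0.0067). Without *Nprl2* KO library 1 or 2, the rise in *Tsc2* KO was called (edgeR adjusted p = 0.0458 and 0.0394), at 0.39 and 0.40.

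In sum, in the fit without a replicate block, 1 of the 3 genes was called lower in *Nprl2* KO, beside 3.66% of all genes. In *Tsc2* KO 2 were called higher than in wild-type, beside 14.9%, and 3 higher than in *Nprl2* KO, beside 17.5%. Within a library, the ratio of *Nr5a2* to *Esrrb* in TPM was 0.382 and 0.551 in *Nprl2* KO, 0.273 and 0.315 in wild-type and 0.227 and 0.235 in *Tsc2* KO, with no overlap between genotypes. The ratio of *Nr0b1* to *Esrrb* was 0.494 to 0.764 in *Nprl2* KO, 0.509 to 0.658 in wild-type and 0.344 to 0.415 in *Tsc2* KO, and that of *Nr0b1* to *Nr5a2* was 0.896 to 2.00, 1.62 to 2.41 and 1.46 to 1.83. An exact permutation test over the 90 ways to deal 6 libraries into 3 genotypes gave p = 0.0667 for *Nr5a2* to *Esrrb*, which is the smallest it can give, p = 0.333 for *Nr0b1* to *Esrrb* and p = 0.733 for *Nr0b1* to *Nr5a2*. After adjustment over the 3 pairs these exact p were 0.2, 0.5 and 0.733, so no difference in ratio between genotypes passed the threshold, and at this size none could. The level of *Esrrb* in the time course at day 0 (388 to 426 TPM) and in GFP+ wild-type (154 and 161 TPM) came from separate sets of libraries and was not compared.

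**Figure D3:**
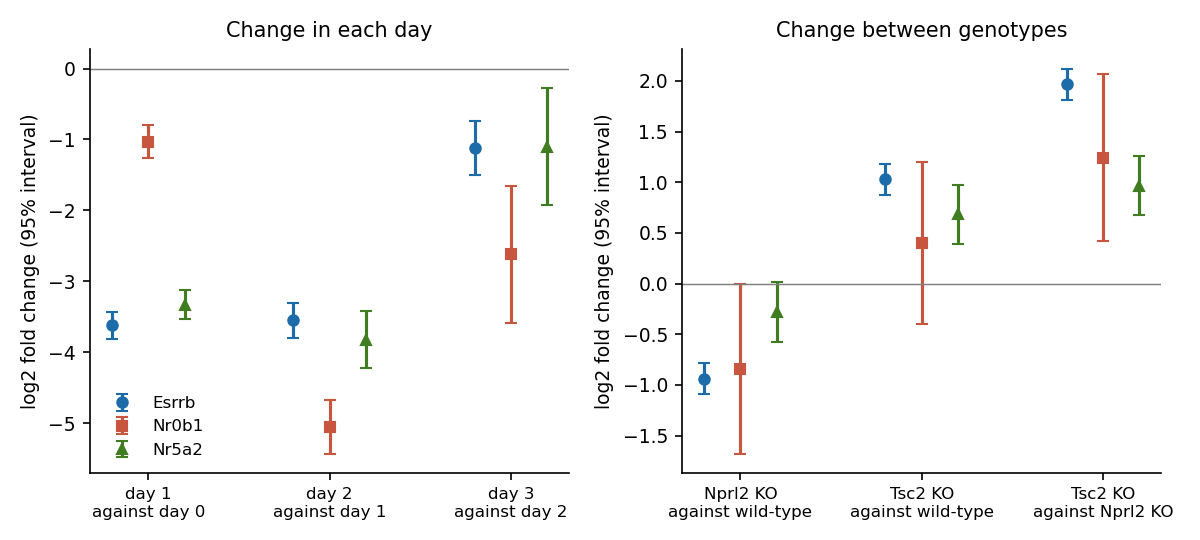
Log2 fold change of each gene with its 95% interval from edgeR, in each day of differentiation (left) and between genotypes of GFP+ cells (right), with a grey line at 0. In the first day *Nr0b1* (-1.03) lies apart from *Esrrb* (-3.62) and *Nr5a2* (-3.33), and among genotypes the intervals of *Nr0b1* are the widest.

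**Figure D4:**
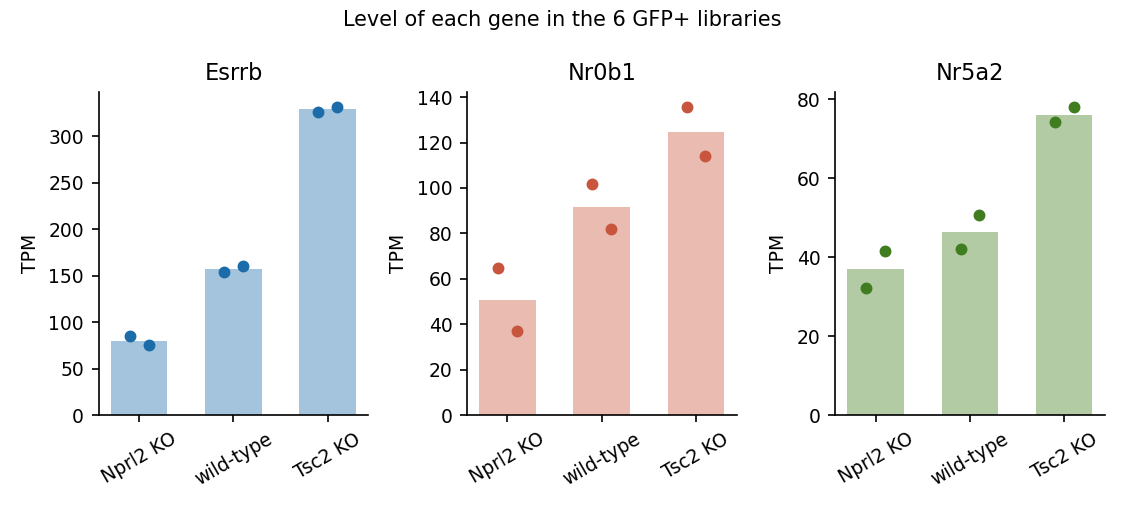
TPM of *Esrrb*, *Nr0b1* and *Nr5a2* in the GFP+ libraries of each genotype, with points for the 2 libraries, bars for their mean and an axis from 0 in each panel. *Esrrb* has means of 79.9, 157.7 and 329.0 TPM in *Nprl2* KO, wild-type and *Tsc2* KO, and the *Nr0b1* libraries of *Nprl2* KO spread from 37.2 to 64.6 TPM.

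*Nr5a2* lies on chromosome 1, whose genes as a whole were higher in *Tsc2* KO. The 746 other tested genes of chromosome 1 stood at a median of 0.37 on the log2 scale when *Tsc2* KO was set against wild-type, while the medians of the other 19 chromosomes, members included, lay between -0.11 and 0.04. In *Nprl2* KO the median of chromosome 1 was -0.01. Chromosome 1 held 7.40% and 7.35% of gene counts in the *Tsc2* KO libraries and between 5.84% and 5.98% in the other 4. *Nr5a2*, at 0.68, was thus above the chromosome's median, and 27.6% of the chromosome's tested genes were higher still. Library scaling was also taken from the genes of chromosome 1 alone, a choice made after seeing the data. The log2 fold change of *Nr5a2* in *Tsc2* KO was then 0.32 (95% interval 0.07 to 0.58). Against *Nprl2* KO it was 0.60 (95% interval 0.34 to 0.85). The edgeR adjusted p, 0.0381 and 0.00157, came from a fit in which all genes were scaled by chromosome 1. They are thus not comparable with those of the main fit. Both *Tsc2* KO libraries carried the shift, so the rise of *Nr5a2* with the genotype and that with its chromosome cannot be told apart. *Esrrb* is on chromosome 12, with a median of -0.12 over 476 other genes in *Tsc2* KO and -0.05 in *Nprl2* KO, and *Nr0b1* on chromosome X, with -0.07 and -0.02. Scaled by its own chromosome, *Esrrb* was at 1.12 in *Tsc2* KO (95% interval 0.95 to 1.29) and -0.86 in *Nprl2* KO (95% interval -1.04 to -0.69).

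**Figure D5:**
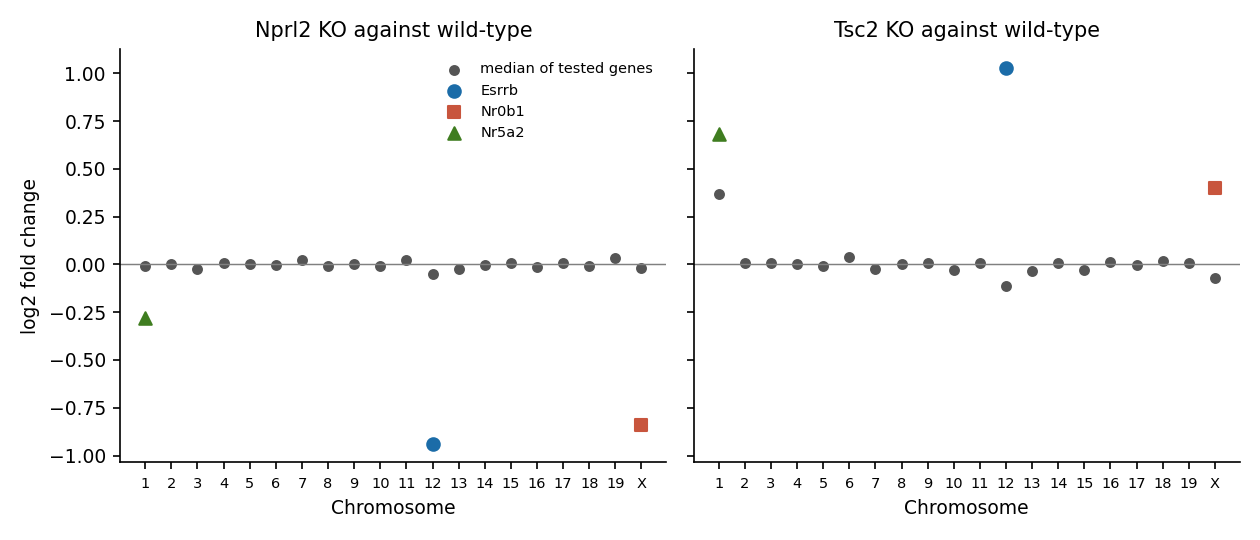
Log2 fold change of the members and the median over the tested genes of each chromosome, in *Nprl2* KO (left) and *Tsc2* KO (right) against wild-type, by chromosome. In *Tsc2* KO chromosome 1 stands at 0.37 and every other chromosome between -0.11 and 0.04, while *Nr5a2* stands at 0.68 and *Esrrb*, on chromosome 12, at 1.03.

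Over the 6 GFP+ libraries, the 5 genes most like *Nr5a2* were *Creg1*, *Mamdc4*, *Cops9*, *Lpgat1* and *Vma21* (Pearson r between 0.995 and 0.999), and *Creg1*, *Cops9* and *Lpgat1* are on chromosome 1 too. Of the 13725 genes tested in GFP+ cells, 747 are on chromosome 1. Those most like *Esrrb* were *Ints10*, *Hs1bp3*, *Mme*, *Dennd1b* and *Dcaf12l1*. Of these, *Hs1bp3* is on chromosome 12, as *Esrrb* is, and *Dennd1b* is on chromosome 1. Those most like *Nr0b1* were *Slc9b2*, *Gfpt2*, *Cc2d2a*, *Prxl2b* and *Tet2*, which lie on chromosomes other than X. Between members, r was 0.920 for *Esrrb* and *Nr5a2*, 0.897 for *Esrrb* and *Nr0b1* and 0.657 for *Nr0b1* and *Nr5a2*, over 6 libraries of 3 genotypes. Such values were common, as 8.37% of 12002 genes had r of 0.9 or more with *Esrrb*. The share was 8.04% for *Nr5a2* and 3.13% for *Nr0b1*. Among the genes most like *Esrrb*, *Nr5a2* came 780th and *Nr0b1* 1038th.

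The GFP+ cells had grown on feeders, which lack the reporter that the sort selects for. The 10 feeder markers, led by *Col1a1*, summed to 175 and 123 TPM in wild-type. The sums were 135 and 130 TPM in *Nprl2* KO and 158 and 47.3 TPM in *Tsc2* KO. By edgeR or DESeq2, 0 of the 7 tested were called in either KO, with 0 at an unadjusted p under 0.05. Of all genes, edgeR called 6.43% in *Nprl2* KO and 29.1% in *Tsc2* KO. The median log2 fold change of the 7 was -0.199 and -0.735, beside 0.001 and 0.005 over all genes. With 2 libraries per genotype, the 0 does not show an equal feeder content. The list is not specific to feeders, as *Thy1* reached 33.3 TPM in the time course. The *Tsc2* KO libraries thus lay far apart in this sum. The 8 primitive endoderm markers summed to 3.91 and 11.9 TPM in *Nprl2* KO, 7.82 and 16.7 TPM in wild-type and 12.3 and 17.5 TPM in *Tsc2* KO. The 8 trophoblast markers summed to 14.3 and 15.4 TPM in *Nprl2* KO and 15.1 and 13.0 TPM in wild-type. In *Tsc2* KO they summed to 21.8 and 30.7 TPM. There 2 of the 6 tested were called higher, *Plet1* (log2 fold change 2.04) and *Ascl2* (1.00), beside 14.9% of all genes. *Elf5*, which defines that lineage, was between 0 and 0.161 TPM in the GFP+ libraries, and *Cdx2* between 0.366 and 1.62 TPM. The part of feeder, trophoblast or endoderm cells in the rise of *Esrrb* was not tested.

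The other naive genes were counted in both KOs beside *Esrrb*. Of the 14, 7 were called lower in *Nprl2* KO and none higher (median -0.36, beside 0.00 over all genes, with 6.43% of all genes called). In *Tsc2* KO, 10 were called higher and none lower (median 0.95, beside 0.01, with 29.1% of all genes called). The largest fall in *Nprl2* KO was that of *Tcl1*, a coactivator of Akt, at -1.43, and the largest rise in *Tsc2* KO was that of *Tfcp2l1* at 2.09. *Esrrb* was thus between *Lifr* (-0.67) and *Klf4* (-1.09) in the first and between *Cd9* (0.99) and *Klf4* (1.15) in the second.

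Of the other nuclear receptors, 27 were tested in GFP+ cells and 1 was called in *Nprl2* KO, where 2.78% of all genes were called higher. This was *Nr6a1*, a repressor of *Pou5f1* in differentiating cells, which was at 131 ± 4.94 CPM (SD, n = 2) against 96.3 ± 6.17 CPM in wild-type and thus higher by 0.44 on the log2 scale (edgeR adjusted p = 0.00712). In *Tsc2* KO, 3 were called higher and 4 lower, beside 14.9% and 14.2% of all genes, and 8 were called between the KOs, beside 34.2%. *Nr4a1*, an early response gene, was higher by 0.55 and *Rxra* by 0.49, while *Nr2f6* and *Rara* had log2 fold changes of -0.997 and -0.45. *Hnf4a* (1.26 against 0.301 CPM) and *Rxrg* (0.505 against 2.24 CPM) were called too, but they were low and were named after their values were seen. Among the known regulators, 0 of 10 were called in *Nprl2* KO by edgeR, beside 6.43% of all genes. At that share, 0 of 10 says little about the regulators. Of the 10, 5 had an unadjusted p under 0.05 in edgeR, and DESeq2 called 1. In *Tsc2* KO, 2 of the 10 were called higher and 2 lower, beside 14.9% and 14.2% of all genes. There *Nanog* rose by 0.91 and *Stat3* by 0.54, and *Tfe3* and *Tcf7l1* had log2 fold changes of -1.10 and -0.33.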

How the data were processed

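RNA-seq of 12 time-course and 6 GFP+ libraries was analysed. The authors ran kallisto 0.42.1 on RefSeq transcripts (build mm10, per the submitters' processing notes) and deposited estimated counts and TPM for 34079 transcripts per library, plus a table of TPM per gene. Library preparation (stranded mRNA, paired-end) is stated for GFP+ cells and not given in the sources used here for the time course. The authors' own KO comparisons, with log2 fold changes, p-values and adjusted p-values from DESeq2, were not used.

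Transcripts were named through RefSeq (33713) or GENCODE (192), 174 were left out, and estimated counts were summed over 24296 genes and rounded. Transcripts without a gene held at most 3.57% of a library. Genes were kept by filterByExpr, scaled by TMM and tested with edgeR 4.0.16 (R 4.3.3, quasi-likelihood, robust) at a Benjamini-Hochberg adjusted p under 0.05, with SE taken as the fold change over the root of F. The step was tested on simulated data. Ratios of TPM within a library were compared by two-sided exact permutation tests.

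The members and gene lists were chosen with earlier results of these data known. Of other nuclear receptors, the 4 largest called rises and falls were named where the groups did not overlap and log2 CPM averaged 1 or more, of naive genes any, of regulators and cofactors those called, and for likeness the 5 highest Pearson r of log2 CPM (prior count 2). Genes named outside this rule are marked as such. Some genes that the rule would name are not reported here. DESeq2 1.42.0, limma 3.58.1 on log2(TPM + 1), other filters and scalings, fits of the 2 groups compared, a replicate block and leaving out each library were tried. Depth limits precision most at days 2 and 3, and counting intervals cover counting error only.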

Additional observations from a re-analysis of the deposited data

How the results depend on the processing

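Over the 24 fold changes of the 3 genes, 415 alternative values were computed, of which 392 kept direction and side of the threshold, 13 lost a call, 10 gained one and 0 changed sign, and 19 of the 24 fold changes kept their side throughout. The fits scaled by a gene's own chromosome scaled all other genes likewise. Their adjusted p, and so their side of the threshold, are not comparable with the main fit. All 39 alternatives of the ratio tests kept their call. For *Nr5a2* at day 3 against day 2 the call was lost with DESeq2 (-1.10), limma on log2(TPM + 1) (-0.24, a scale that shrinks low genes) and no filter on low counts (-1.08), and leaving out 1 library gave -1.24 to -0.93. For *Nr0b1*, leaving out 1 library gave -1.28 to -0.49 in *Nprl2* KO, 0.26 to 0.55 in *Tsc2* KO and 0.89 to 1.68 between the KOs. With only the 2 groups compared, *Nr0b1* was called in *Tsc2* KO (0.39, edgeR adjusted p = 0.0475) and lost between the KOs (1.24, edgeR adjusted p = 0.093). With no filter on low counts, calls were gained by *Nr0b1* in *Nprl2* KO (-0.84) and *Tsc2* KO (0.40) and by *Nr5a2* in *Nprl2* KO (-0.28, edgeR adjusted p = 0.03). Deviations of GFP+ libraries that share a replicate number correlated at 0.085, 0.133 and 0.164 between genotypes. Those with unlike numbers correlated at -0.164 to -0.085. With 2 libraries per genotype these values mirror each other, so they cannot decide whether the numbers pair the libraries. The labels state no shared source, and the main fit left the numbers out. With the replicate block, *Nr0b1* in *Nprl2* KO (-0.85, edgeR adjusted p = 0.00118) and *Tsc2* KO (0.41, edgeR adjusted p = 0.0151) and *Nr5a2* in *Nprl2* KO (-0.29, edgeR adjusted p = 0.0185) were called. The count of other nuclear receptors called between the KOs was 8, 4 with DESeq2 and 14 with the replicate block, and in *Nprl2* KO it was 1, 2 without a filter and 3 with the replicate block. The cause of these changes was not tested. Of the 5 genes most like each gene, 0 were the same with Spearman's rho in either set, and with log2(TPM + 1) 2 were the same for *Esrrb*, 3 for *Nr0b1* and 1 for *Nr5a2* in the time course, and 3 for *Nr0b1* and 3 for *Nr5a2* in GFP+ cells. At 10 counts or more in every library, *Nr0b1* and *Nr5a2* were not in the time-course fit and gave no value. With only days 2 and 3 in the fit, *Nr5a2* gave no value either.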

Other observations

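Coactivators and corepressors through which nuclear receptors act were counted too. Of 15 listed, 14 were tested, and at day 3 against day 0, 3 were called higher and 5 lower, a smaller share than the 70.9% of all genes called, with a median log2 fold change of -0.17 beside -0.01 over all genes. *Ncoa3*, a coactivator that is known to bind Esrrb in mESCs, fell by 1.74 on the log2 scale, and *Ncoa1*, of the same family, fell by 1.58. *Carm1*, an arginine methyltransferase recruited by these coactivators, rose by 0.93. In *Nprl2* KO, 3 were called lower, beside 3.66% of all genes, with log2 fold changes of -0.49 for *Ncoa1*, -0.46 for *Crebbp* and -0.45 for *Ncoa3*. In *Tsc2* KO, 3 were called higher and 5 lower, beside 14.9% and 14.2% of all genes, and *Ncoa3* was higher by 0.18 while *Ncoa1* was at -0.58 and the acetyltransferase gene *Crebbp* at -0.57.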
